A study of Gallus gallus with 16 samples.

Results

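Of 10 genes that make, break down or bind retinoic acid, 4 are listed by symbol in the authors' 5 comparison tables and are described here: the receptors RARB and RXRG, the breakdown enzyme CYP26A1 and the synthesis enzyme ALDH1A1. The tables list 21357 loci, 9225 of them with a symbol. RARA, RARG, RXRA, CYP26B1, ALDH1A2 and ALDH1A3 are not listed under those symbols and were not analysed here. RNA was sequenced from wild type domestic chicken embryos, 1 library per embryo, from a dissected piece with the spinal cord at neck and forelimb level. Specific pathogen-free eggs were injected before incubation with nicotine (30 ng/ml, scaled to egg weight, given as nicotine hydrogen bitartrate) or with sodium bitartrate monohydrate as vehicle. The groups were nicotine at day 5, vehicle at day 5, nicotine at day 7 and vehicle at day 7, with 4 embryos each.

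Retinoic acid is made from vitamin A by retinol dehydrogenases and then by aldehyde dehydrogenases of the ALDH1A family, and is removed by cytochrome P450 enzymes of the CYP26 family. It acts through retinoic acid receptors, which bind DNA as partners of retinoid X receptors and recruit co-repressors or co-activators. In the embryo it is known for patterning the hindbrain and spinal cord, where it favours neuronal differentiation and acts against FGF signalling. RARB and CYP26A1 are also well known as genes that retinoic acid itself induces.

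Library totals ran from 21801247 to 29002315 counts. Markers of spinal cord neurons (8 of 10 found) summed to 617 to 1210 CPM (counts scaled to a common library total) over the 16 libraries. Markers of other tissues were present too: meninges and fibroblasts (9 of 14 found) summed to 1170 to 1760 CPM, skeletal muscle (7 of 11) to 202 to 556 CPM and blood (5 of 8) to 421 to 1100 CPM. No marker found was at 0 counts over a whole group. In 4 libraries, 1 per group, 57 loci were under 0.05 CPM that stood at 0.5 CPM or more in the other 12: nicotine day 5 replicate 4, vehicle day 5 replicate 2, and replicate 2 of both day 7 groups. The labels do not name this split. Because the tissue was bulk, fewer cells of a type and less RNA per cell cannot be told apart.

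Levels per library come from the deposited count matrix. ALDH1A1 (ENSGALG00000015147) was found there by its identifier. RARB (ENSGALG00000011298), RXRG (ENSGALG00000040730) and CYP26A1 (ENSGALG00000033695) are named only in the tables, so each was joined to the assembled locus whose 5 log2 fold changes, refitted from the matrix, equal the authors' own. The largest of the 5 differences was 1.88e-05 for RARB, 2.03e-05 for CYP26A1 and 6.5e-05 for RXRG, and the next nearest locus was at 0.0159, 0.0608 and 0.0383. Among loci whose identifier is in both sources, the same rule accepted 6430 and returned the locus of the same identifier for all 6430. In the RefSeq order of GRCg7b, RARB lies between THRB and TOP2B, and RXRG between SELE and LMX1A. TOP2B and SELE are not listed by symbol. Whether the assembled loci of RARB and RXRG also hold reads of a neighbour was not tested. Levels are CPM scaled by library total and TMM factor. They are not corrected for transcript length, so they are compared between groups and not between genes.

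RARB, a receptor that binds retinoic acid, was lower with nicotine at day 5 in the authors' test, and in vehicle embryos it was lower at day 7 than at day 5. At day 5 it stood at 64.3, 60.8, 57.6 and 52.7 CPM in nicotine replicates 1 to 4, against 76.0, 63.6, 88.4 and 70.3 CPM in vehicle replicates 1 to 4. All but 1 of the nicotine libraries lay below the lowest vehicle library, so the groups overlapped in 1 library only. The means were 58.9 ± 4.93 CPM with nicotine and 74.6 ± 10.5 CPM with vehicle (SD, n = 4 each). The authors' deposited table puts the log2 difference at -0.36 and its adjusted p at 0.0191. That table called 2.72% of loci with an adjusted value in either direction and 1.96% lower. edgeR's quasi-likelihood test with Benjamini-Hochberg adjustment, run on the counts, put it at -0.34 ± 0.0952 (SE) with an adjusted p of 0.236, and called neither RARB nor any other locus. At an unadjusted p under 0.05 it had 2747 of 18394 loci, and DESeq2 on the same counts called 267 loci or 2.26%, RARB among them (adjusted p = 0.0367). With a covariate for the 4 libraries named above, DESeq2 called 2.53% of loci, RARB among them (adjusted p = 0.0197). That fit gave the authors' log2 fold changes and was used to find the RARB locus. Its call is therefore not separate from the authors' own.

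**Figure D1:**
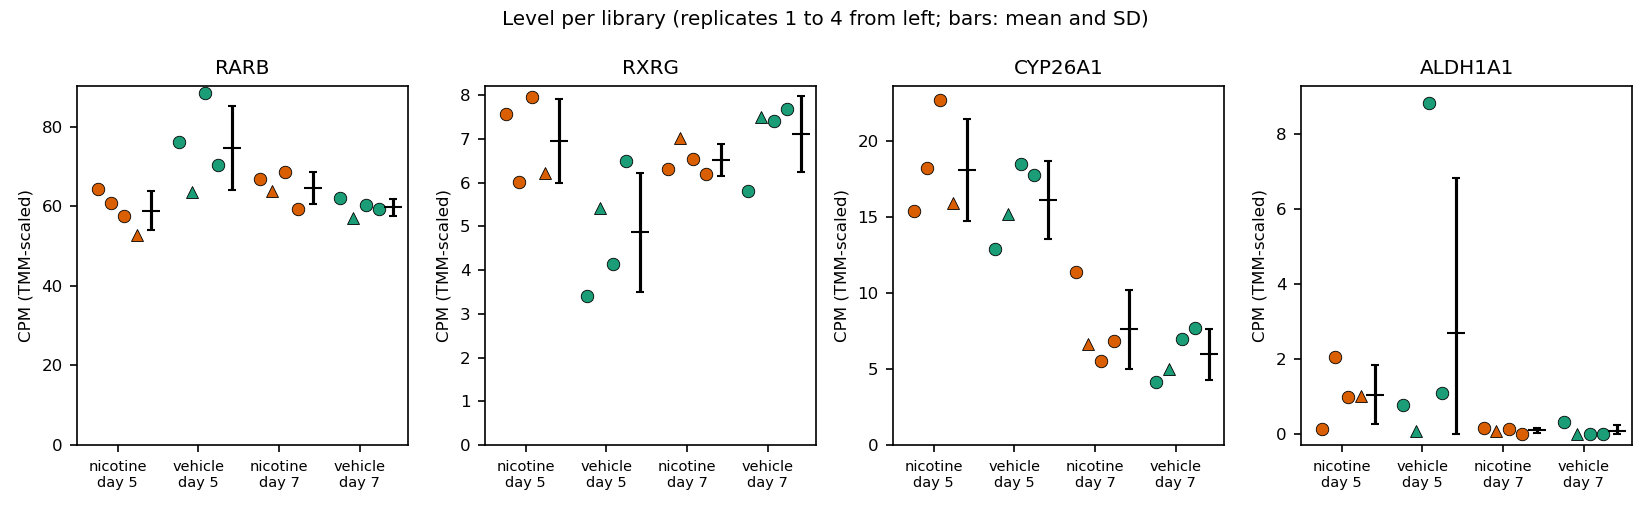
Level of each gene in CPM (linear axis) in 16 libraries, by group; points are libraries, triangles the 4 that lack 57 loci, bars the mean and SD (n = 4; the lower bar of ALDH1A1 stops at 0). RARB of vehicle embryos is highest at day 5, at 63.6 to 88.4 CPM; CYP26A1 is lower at day 7 than at day 5 in every library; and 1 vehicle library of day 5 holds most ALDH1A1 counts.

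At day 7 RARB stood at 66.7, 63.8, 68.5 and 59.2 CPM in nicotine replicates 1 to 4, against 62.1, 57.0, 60.4 and 59.3 CPM in vehicle replicates 1 to 4. The ranges overlapped, although 3 nicotine libraries lay above all vehicle libraries. On the log2 scale the difference was 0.11 ± 0.0951 (SE) by edgeR, with an adjusted p of 1. It was 0.12 in the authors' deposited table, with an adjusted p of 0.9996, where 0.395% of loci were called and 0.221% were called higher. The nicotine effect at day 7 minus that at day 5 was 0.48 in the authors' deposited table, at an adjusted p of 0.0304, with 2.25% of loci called and 1.57% called higher. By edgeR it was 0.45 ± 0.135 (SE) at an adjusted p of 0.257, and 0 loci were called. At an unadjusted p under 0.05 edgeR had 2521 loci. DESeq2 called 232 loci or 1.76%, RARB not among them. With the covariate DESeq2 called 267 or 1.96%, RARB among them (adjusted p = 0.0337). That is the fit that gave the authors' log2 fold changes, so this call is not separate from theirs.

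Between days RARB of vehicle embryos fell to 59.7 ± 2.14 CPM at day 7, against 74.6 ± 10.5 CPM at day 5 (SD, n = 4 each), with no overlap of the libraries. edgeR put the log2 difference at -0.32 ± 0.0951 (SE) with an adjusted p of 0.0156, and the authors' deposited table puts it at -0.30 with 0.00542. In that comparison the table called 36.8% of loci (18.1% higher, 18.7% lower) and edgeR 37.2%, and the ranges of 44.5% of 8280 named loci with at least 1 CPM did not overlap. In nicotine embryos RARB had 64.5 ± 4.04 CPM at day 7 and 58.9 ± 4.93 CPM at day 5 (SD, n = 4 each). That log2 difference of 0.13 ± 0.0952 (SE) did not pass by edgeR (adjusted p = 0.329), nor did the value of 0.18 in the authors' deposited table, whose adjusted p is 0.147. There the table called 31.1% of loci (15.9% higher, 15.3% lower) and edgeR 29.6%. The 5 comparisons share libraries: the vehicle embryos of day 5 enter the day 5 comparison, the day comparison in vehicle embryos and the difference of the nicotine effect.

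**Figure D2:**
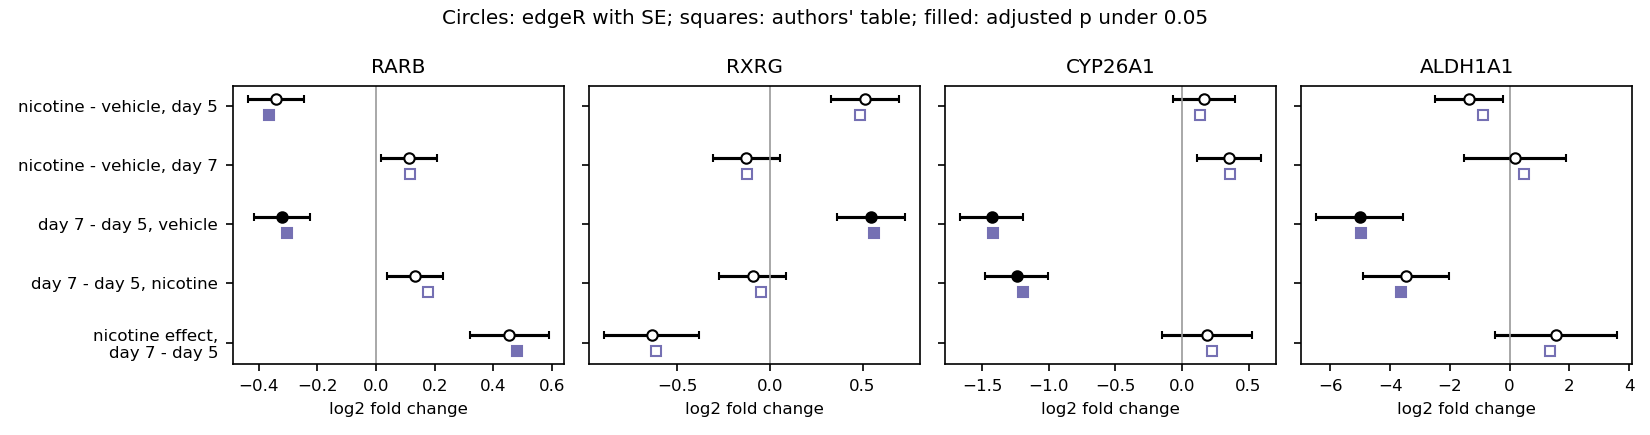
Log2 fold change of the 4 genes in 5 comparisons: circles are edgeR estimates with their standard error, squares the authors' deposited values, and filled symbols have an adjusted p under 0.05. Both sources have the same sign in all 20 cases. They rest on the same counts, and RARB, RXRG and CYP26A1 were found by the authors' values, so their shared sign was largely set by the join. The sources differ in the call for RARB at day 5, for RARB in the difference between days and for ALDH1A1 in nicotine embryos.

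Vehicle day 5 replicate 3 had the highest RARB of all 16 libraries, at 88.4 CPM. Without it the day 5 difference was -0.27 (edgeR adjusted p = 0.518), and the fall in vehicle embryos between days was -0.23 and no longer passed (edgeR adjusted p = 0.0683). The library that lacks the 57 loci had the lowest RARB in 3 of the 4 groups. In the other 12 libraries, 3 per group, RARB had 60.9 ± 3.35 CPM with nicotine and 78.2 ± 9.29 CPM with vehicle at day 5 (SD, n = 3 each), and the difference was -0.39 (edgeR adjusted p = 0.183).

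**Figure D3:**
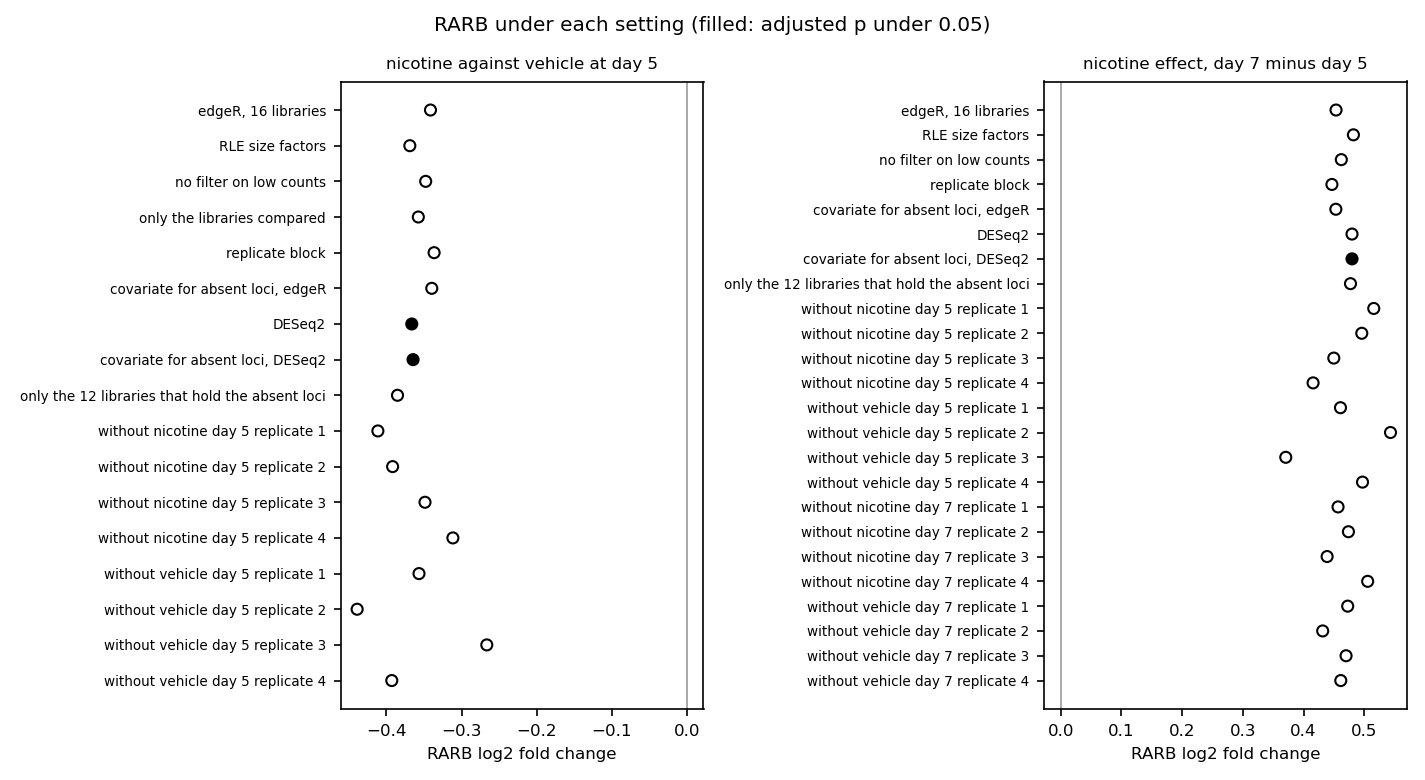
RARB log2 fold change for nicotine against vehicle at day 5 (left) and for the nicotine effect at day 7 minus day 5 (right) under each setting; filled points have an adjusted p under 0.05. The day 5 value runs from -0.44 to -0.27 with 1 library left out, and all points keep their sign.

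RARB is a very long gene, and genes of like span had a median below that of all genes with nicotine at day 5. Its span in the RefSeq annotation of GRCg7b is 324 kb, and 1.55% of 6974 genes with a span and an adjusted value are longer. Over 206 genes of like span (within 1.5 times), the authors' deposited table of day 5 has a median log2 value of -0.21, with quartiles of -0.374 and -0.0046, against a median of -0.050 over all 6974. RARB at -0.364 lay above 53 of the 206, and 12.6% of them were called. For the nicotine effect at day 7 minus that at day 5 the median over 212 genes of like span was 0.284, and RARB at 0.48 lay above 166 of them. Between days in vehicle embryos the median over 248 such genes was 0.386, while RARB at -0.302 lay above 43 of them. Between days in nicotine embryos it was 0.576, and RARB at 0.178 lay above 62 of 248. With nicotine at day 7 it was 0.0527, and RARB at 0.115 lay above 170 of 248. The part of gene length in the RARB difference was not tested.

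Of 11 marker lists, only that of notochord and floor plate (4 of 5 found) did not overlap between the day 5 groups. It had 35.9 to 40.2 CPM with nicotine and 25.5 to 31.9 CPM with vehicle. The day 5 ranges of 5.02% of 8152 named loci with at least 1 CPM did not overlap either. Within vehicle embryos of day 5, replicates 1 and 3 had the highest RARB and the lowest sums of neural progenitor markers (5 of 9 found), at 997 and 930 CPM, with 1420 and 1580 CPM in replicates 2 and 4. The same 2 replicates also had the lowest sums for neurons (696 and 617 CPM), motor neurons (302 and 293 CPM), cartilage and sclerotome (152 and 140 CPM) and dorsal root ganglia (14.8 and 14.2 CPM). They had the highest sums for meninges and fibroblasts, at 1760 and 1600 CPM. Muscle, epidermis, endothelium, blood and notochord sums did not set these 2 replicates apart. In nicotine embryos of day 5, replicates 1 and 2 had the highest RARB and the highest progenitor sums. These were 1870 and 1650 CPM, against 1250 and 1240 CPM in replicates 3 and 4. Neuron sums were also highest in replicates 1 and 2 (1080 and 876 CPM), and motor neuron sums lowest (312 and 273 CPM). Blood sums were highest there too (890 and 1100 CPM). Endothelium sums (91.8 and 98.5 CPM) and notochord sums (35.9 and 36.2 CPM) were lowest there. Cartilage, ganglia, meninges, muscle and epidermis sums did not set these 2 replicates apart. VIM made up most of the mean progenitor sum of day 5: 1160 of 1500 CPM with nicotine and 968 of 1230 CPM with vehicle. FOXP1 made up most of the motor neuron sum (268 of 344 CPM and 263 of 324 CPM). HBZ made up most of the blood sum (843 of 909 CPM and 813 of 892 CPM). Each of these sums therefore mostly gives the level of that gene. The part of the listed cell types in the RARB values was not tested.

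RXRG, a retinoid X receptor that pairs with retinoic acid, thyroid hormone and vitamin D receptors, showed its lowest levels in vehicle embryos of day 5. There it stood at 3.4, 5.42, 4.13 and 6.5 CPM in replicates 1 to 4. The nicotine libraries of day 5 had 7.58, 6.02, 7.95 and 6.23 CPM, and 2 of them lay above all vehicle libraries while the other two lay within the vehicle range. Means were 6.95 ± 0.963 CPM with nicotine and 4.86 ± 1.37 CPM with vehicle (SD, n = 4 each). The log2 difference did not pass, at 0.51 ± 0.182 (SE) by edgeR with an adjusted p of 0.259, and at 0.49 in the authors' deposited table with 0.135.

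In vehicle embryos RXRG rose to 7.11 ± 0.87 CPM at day 7, against 4.86 ± 1.37 CPM at day 5 (SD, n = 4 each). The day 7 libraries had 5.81, 7.51, 7.42 and 7.69 CPM, and replicate 1 lay within the day 5 range. On the log2 scale the change was 0.55 ± 0.182 (SE) by edgeR with an adjusted p of 0.0285, and 0.56 in the authors' deposited table with 0.0142. It did not pass in edgeR when vehicle day 5 replicate 1 or 3, or vehicle day 7 replicate 2, 3 or 4, was left out (edgeR adjusted p = 0.0569 to 0.0833). In nicotine embryos RXRG had 6.51 ± 0.364 CPM at day 7 and 6.95 ± 0.963 CPM at day 5 (SD, n = 4 each), a log2 difference of -0.093 ± 0.181 (SE) that did not pass (edgeR, adjusted p = 0.755).

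The nicotine effect on RXRG at day 7 minus that at day 5 was -0.64 ± 0.257 (SE) by edgeR with an adjusted p of 0.32, and -0.61 in the authors' deposited table with 0.202. It passed in neither. At day 7 alone the groups overlapped, with 6.19 to 7.01 CPM with nicotine and 5.81 to 7.69 CPM with vehicle, and the log2 value in the authors' deposited table is -0.13, at an adjusted p of 0.9996. The vehicle day 5 libraries with the lowest RXRG were replicates 1 and 3, the same that had the highest RARB. They stood apart in some of the marker lists given for RARB. In nicotine embryos of day 5 the lowest RXRG was in replicates 2 and 4, at 6.02 and 6.23 CPM. Progenitor sums there were 1650 and 1240 CPM, against 1870 and 1250 CPM in replicates 1 and 3. Sums were lowest in replicates 2 and 4 for ganglia (16.6 and 19.6 CPM), meninges (1420 and 1260 CPM), muscle (382 and 314 CPM) and cartilage (194 and 215 CPM). Epidermis sums were highest there (237 and 324 CPM). Progenitor, neuron, motor neuron, endothelium, blood and notochord sums did not set replicates 2 and 4 apart. The part of these cell types in the RXRG values was not tested.

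CYP26A1, which oxidises retinoic acid and so removes it, fell between day 5 and day 7 in both treatments. In nicotine embryos of day 7 it stood at 11.4, 6.65, 5.53 and 6.87 CPM, against 15.4, 18.2, 22.7 and 15.9 CPM in nicotine embryos of day 5. In vehicle embryos it stood at 4.13, 5.02, 7.01 and 7.73 CPM at day 7, against 12.9, 15.2, 18.5 and 17.8 CPM at day 5. Every library of day 7 lay below every library of day 5, in a comparison where ranges of 41.8% of 8251 named loci did not overlap in nicotine embryos and 44.5% of 8280 in vehicle embryos.

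Between days CYP26A1 changed by -1.24 ± 0.237 (SE) on the log2 scale in nicotine embryos and by -1.43 ± 0.238 (SE) in vehicle embryos, with edgeR adjusted p of 0.00149 and 0.000368. The authors' deposited tables put it at -1.20 in nicotine embryos and -1.42 in vehicle embryos, or 2.29-fold and 2.68-fold lower at day 7, with adjusted p of 1.075e-05 and 8.716e-08. Both calls held in edgeR with any 1 library left out, with adjusted p of 0.000447 to 0.0065 in nicotine and 0.00056 to 0.00187 in vehicle embryos. Marker sums also moved with day: cartilage and sclerotome (6 of 8 found) had 448 to 586 CPM at day 7 and 194 to 348 CPM at day 5 in nicotine embryos. In vehicle embryos that list had 541 to 654 CPM at day 7 and 140 to 300 CPM at day 5. Epidermis (5 of 8 found) had 146 to 191 CPM at day 7 and 216 to 324 CPM at day 5 in nicotine embryos. In vehicle embryos it had 157 to 238 CPM at day 7 and 229 to 336 CPM at day 5, and these ranges overlapped. Blood had 421 to 807 CPM at day 7 and 764 to 1100 CPM at day 5 in nicotine embryos. In vehicle embryos it had 455 to 774 CPM at day 7 and 754 to 1020 CPM at day 5. The blood ranges overlapped in both treatments. HBZ made up most of the mean blood sum, with 489 of 560 CPM at day 7 and 843 of 909 CPM at day 5 with nicotine. With vehicle it was 497 of 569 CPM and 813 of 892 CPM. Mean GATA1 was higher at day 7 in both treatments, and CSF1R in nicotine embryos. Mean SPI1 and LCP1 were lower at day 7 in both, and CSF1R in vehicle embryos. Dorsal root ganglia (5 of 9 found) in nicotine embryos had 27.0 to 31.8 CPM at day 7 and 16.6 to 25.0 CPM at day 5. In vehicle embryos ganglia had 25.7 to 34.2 CPM at day 7 and 14.2 to 22.7 CPM at day 5. Neuron sums in vehicle embryos were 968 to 1210 CPM at day 7 and 617 to 874 CPM at day 5, and overlapped in nicotine embryos. Notochord sums in nicotine embryos were 30.2 to 33.4 CPM at day 7 and 35.9 to 40.2 CPM at day 5, and overlapped in vehicle embryos. Progenitor, motor neuron, meninges, muscle and endothelium sums also overlapped between days in both treatments. Vehicle muscle sums were 202 to 431 CPM at day 7 and 390 to 556 CPM at day 5. Progenitor sums were mostly VIM. In vehicle embryos mean VIM and SOX9 were higher at day 7 (1490 and 231 CPM) than at day 5 (968 and 106 CPM). Mean HES5, PAX6 and NKX6-1 were lower at day 7 (29.4, 11.4 and 58.1 CPM) than at day 5 (73.0, 20.3 and 65.4 CPM). Directions were the same in nicotine embryos. The part of tissue make-up in the CYP26A1 fall was not tested.

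The difference in CYP26A1 between nicotine and vehicle embryos passed in neither test at either day. At day 5 the means were 18.1 ± 3.34 CPM with nicotine and 16.1 ± 2.57 CPM with vehicle (SD, n = 4 each), a log2 difference of 0.17 ± 0.235 (SE; edgeR, adjusted p = 0.792). At day 7 they were 7.62 ± 2.61 CPM with nicotine and 5.97 ± 1.68 CPM with vehicle (SD, n = 4 each), a log2 difference of 0.35 ± 0.24 (SE; edgeR, adjusted p = 1). The day 7 difference was 0.087 without nicotine replicate 1, the library at 11.4 CPM. The nicotine effect at day 7 minus that at day 5 was 0.19 ± 0.336 (SE; edgeR, adjusted p = 0.844). In the RefSeq order of GRCg7b the neighbours of CYP26A1 are CYP26C1, another enzyme of the family, which the tables do not list by that symbol, and CEP55. CEP55 is listed, with log2 values between days of -0.45 in nicotine and -0.71 in vehicle embryos in the authors' deposited tables. Whether the assembled locus also holds reads of either neighbour was not tested.

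ALDH1A1, which converts retinal to retinoic acid, was barely detected at day 7 and was carried at day 5 by few libraries. In nicotine embryos of day 7 it had 4, 2, 3 and 0 counts in replicates 1 to 4, and in vehicle embryos of day 7 it had 8, 0, 0 and 0 counts. At day 5 it had 3, 58, 21 and 23 counts with nicotine and 17, 2, 193 and 27 counts with vehicle. Vehicle day 5 replicate 3 alone held 80.8% of the 239 counts of its group, at 8.85 CPM where the other vehicle libraries had 0.0723 to 1.1 CPM. Loci with a gene identifier, such as this one, hold 0.334% of all counts in the matrix, and whether reads of ALDH1A1 also sit in an assembled locus was not tested.

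Between days ALDH1A1 fell in vehicle embryos by 5.02 on the log2 scale, with an SE of 1.45 and an edgeR adjusted p of 0.0132, and the authors' deposited table puts it at -4.99 with 0.00175. Without vehicle day 5 replicate 3 the edgeR value was -2.96 at an adjusted p of 0.107, which is no call. With the replicate number as a block it was -4.51, which edgeR did not call either (adjusted p = 0.0525). In nicotine embryos the value was -3.48 ± 1.44 (SE) by edgeR, which is no call at an adjusted p of 0.075. It is called in the authors' deposited table, at -3.64 with an adjusted p of 0.0301. DESeq2 called it too, without the covariate (adjusted p = 0.0386, 30.3% of loci called) and with it (0.0278, 31.3%). The fit with the covariate repeats the authors' log2 fold changes and is not separate from their call. Of the 8 libraries of day 5, nicotine replicate 1 and vehicle replicate 2, with 3 and 2 counts, lay within the day 7 range of their treatment. These folds rest on 9 counts in nicotine embryos and 8 in vehicle embryos of day 7 and are imprecise.

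The nicotine comparisons of ALDH1A1 gave no call. At day 5 the level was 1.04 ± 0.785 CPM with nicotine and 2.7 ± 4.13 CPM with vehicle (SD, n = 4 each), a log2 difference of -1.36 ± 1.15 (SE; edgeR, adjusted p = 0.615), which was 0.68 without vehicle replicate 3 (adjusted p = 0.918). The authors' deposited table holds no adjusted p for it at day 5. At day 7 the level was 0.0886 ± 0.0674 CPM with nicotine and 0.0802 ± 0.16 CPM with vehicle (SD, n = 4 each, edgeR adjusted p = 1), and a difference was not detectable at such low counts.

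Across the 4 genes, the authors' deposited tables called 1 with nicotine at day 5 (RARB, with 2.72% of all loci called) and 0 with nicotine at day 7 (0.395% of loci). Between days the authors' deposited tables called 2 in nicotine embryos (CYP26A1 and ALDH1A1, both lower, with 31.1% of loci called) and all 4 in vehicle embryos (RXRG higher, the others lower, with 36.8% of loci called). For the difference of the nicotine effect they called 1 (RARB, with 2.25% of loci called). For all 4 genes, an exact permutation test over libraries (2-sided, 16 tests, smallest possible p 0.0286) reached that smallest value for RARB and CYP26A1 between days in vehicle embryos and for CYP26A1 between days in nicotine embryos. For RARB at day 5 the exact permutation p was 0.0571.

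Around these genes, 53 of 99 other genes of retinoid metabolism, transport, receptors, co-regulators and response were listed. Of 50 with an adjusted value, 11 rose and 12 fell between days in nicotine embryos in the authors' deposited tables, and 14 rose and 8 fell in vehicle embryos. edgeR called 8 higher and 11 lower in nicotine embryos and 10 higher and 7 lower in vehicle embryos. Their median log2 fold change was 0.018 in nicotine and -0.0069 in vehicle embryos, with 0.013 and 0.038 over all loci. Over all loci the tables called 31.1% (15.9% higher, 15.3% lower) in nicotine embryos and 36.8% (18.1% higher, 18.7% lower) in vehicle embryos. Of the genes called, 12 were called in both treatments, which is 52.2% of those called in nicotine and 54.5% of those called in vehicle embryos, and all 12 had the same direction. Over all loci the shares called in both were 70.9% and 57.5%, and 99.4% of those had the same direction.

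**Figure D4:**
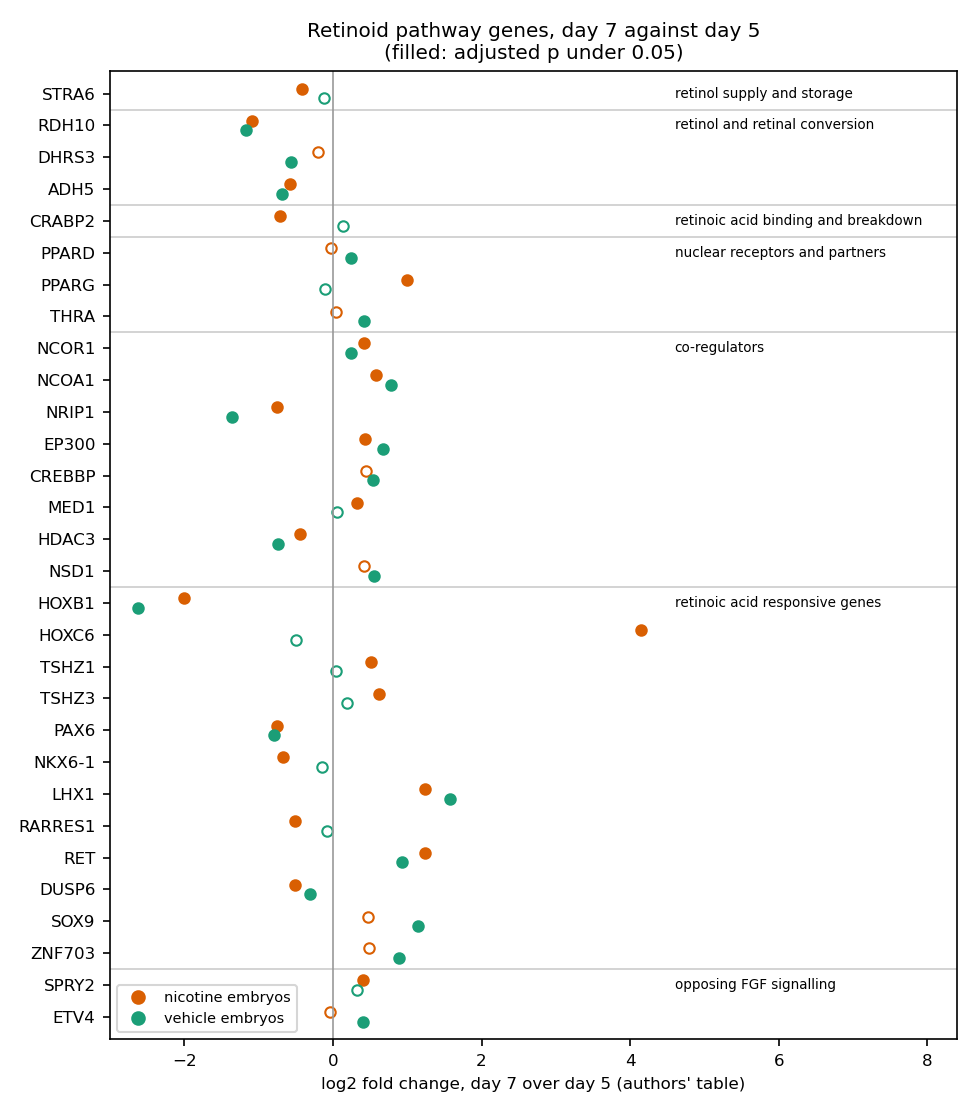
Log2 fold change of day 7 over day 5 in the authors' deposited tables for the retinoid genes reported by name that were called in either treatment, grouped by role; orange is nicotine, green vehicle, and filled points have an adjusted p under 0.05. RDH10 and ADH5 lie below 0 in both treatments, and co-regulators lie on both sides of 0.

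Of 6 listed enzymes that convert retinol and retinal, 2 fell between days in nicotine embryos (15.3% of all loci did), 3 fell in vehicle embryos (18.7% of loci) and 0 rose in either (15.9% and 18.1% of loci). RDH10, the main retinol dehydrogenase of the embryo in mouse, fell to 30.6 ± 1.38 CPM at day 7, against 66.9 ± 12.9 CPM at day 5, in nicotine embryos, and to 27.9 ± 4.43 CPM at day 7, against 63.4 ± 17.3 CPM at day 5, in vehicle embryos (SD, n = 4 each). On the log2 scale that was -1.13 in nicotine and -1.19 in vehicle embryos (adjusted p = 0.000464 and 0.000181 by edgeR). ADH5, an alcohol dehydrogenase, fell by 0.62 and 0.70 (edgeR adjusted p = 0.00063 and 0.000161). DHRS3, which returns retinal to retinol, fell by 0.57 in vehicle embryos (authors' deposited table, adjusted p = 0.0362), but edgeR did not call it (adjusted p = 0.0522). RDH8, RDH14 and DHRS9 did not pass in either.

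Of the genes for retinol supply, 1 of 6 listed fell between days in nicotine embryos and 0 in vehicle embryos. The 1 listed carrier protein of retinoic acid, CRABP2, fell in nicotine embryos. Over all loci 15.3% fell in nicotine and 18.7% in vehicle embryos, in the authors' deposited tables. The test of the difference between treatments passed for neither. STRA6, the cell surface receptor for retinol binding protein, had 58.9 ± 6.42 CPM at day 7 and 80.8 ± 12.2 CPM at day 5 with nicotine (SD, n = 4 each), which is -0.46 on the log2 scale (edgeR, adjusted p = 0.0129). CRABP2, which carries retinoic acid to its receptors, had 151 ± 42.7 CPM at day 7 and 256 ± 60.1 CPM at day 5 with nicotine (SD, n = 4 each), which is -0.76 on the log2 scale (edgeR, adjusted p = 0.0187). CRABP2 is also 1 of the meninges and fibroblast markers used here. The nicotine effect at day 7 minus that at day 5 was -0.30 for STRA6 and -0.85 for CRABP2 in the authors' deposited table, with adjusted p of 0.345 and 0.128.

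Co-regulators moved in both directions, with 4 higher and 2 lower of 12 in nicotine embryos (15.9% and 15.3% of all loci) and 6 higher and 2 lower in vehicle embryos (18.1% and 18.7% of all loci) in the authors' deposited tables. NRIP1, a co-repressor that retinoic acid induces in cultured cells, fell by 0.79 in nicotine and 1.37 in vehicle embryos (edgeR adjusted p = 0.000777 and 1.62e-05). HDAC3, the deacetylase of the NCOR complexes, fell by 0.48 and 0.75 (edgeR adjusted p = 0.000487 and 1.72e-05). The co-activator NCOA1 rose by 0.53 and 0.75 (edgeR adjusted p = 0.0124 and 0.000953). Per the authors' deposited tables, the co-repressor NCOR1 rose by 0.42 and 0.24 (adjusted p = 1.388e-05 and 0.0183) and the acetyltransferase EP300 by 0.43 and 0.67 (adjusted p = 0.0279 and 0.000182). There CREBBP rose by 0.54 and NSD1 by 0.55 in vehicle embryos, and MED1 rose in nicotine embryos by 0.33, in the same authors' deposited tables. edgeR did not call NCOR1 in vehicle embryos (adjusted p = 0.0598), EP300 in nicotine embryos (0.105), CREBBP (0.0648), NSD1 (0.0509) or MED1 (0.0966). Of the receptor partners, THRA rose by 0.42 and PPARD by 0.24 in vehicle embryos, and PPARG rose by 1.00 in nicotine embryos, with adjusted p of 0.000103, 0.0233 and 0.0172 in the authors' deposited tables. Of these edgeR did not call PPARD (adjusted p = 0.0516).

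Genes known to respond to retinoic acid in other systems did not share 1 direction: of 15 with an adjusted value, 5 rose and 6 fell between days in nicotine embryos, and 5 rose and 3 fell in vehicle embryos. Over all loci 15.9% rose and 15.3% fell in nicotine embryos, and 18.1% rose and 18.7% fell in vehicle embryos, in the authors' deposited tables. HOXB1, a hindbrain Hox gene with retinoic acid response elements, fell to 7.81 ± 3.77 CPM at day 7, against 32.3 ± 9.7 CPM at day 5, in nicotine embryos, and to 3.86 ± 2.07 CPM at day 7, against 23.1 ± 3.01 CPM at day 5, in vehicle embryos (SD, n = 4 each; edgeR adjusted p = 0.000778 and 0.000116). PAX6, DUSP6, NKX6-1 and RARRES1 also fell between days in at least 1 treatment in the authors' deposited tables, where edgeR did not call PAX6 in nicotine embryos (adjusted p = 0.0524). LHX1, RET, SOX9, ZNF703, TSHZ1, TSHZ3 and HOXC6 rose there in at least 1 treatment. SOX9 is also 1 of the cartilage and sclerotome markers, and PAX6, NKX6-1 and SOX9 are among the neural progenitor markers used here. In nicotine embryos HOXC6 rose by 4.15 (adjusted p = 0.0153 in the authors' deposited table), but it had 14 counts over the day 5 libraries, so the size of that fold is imprecise. Of the listed genes of the FGF pathway, ETV4 rose by 0.40 in vehicle and SPRY2 by 0.41 in nicotine embryos. Their adjusted p were 0.00965 and 0.0425 in the authors' deposited tables. edgeR did not call SPRY2 (adjusted p = 0.0821).

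With nicotine, 2 of the 53 genes were called at day 5 in the authors' deposited table, of 39 with an adjusted value, 1 at day 7 and 0 for the difference between days. Over all loci the authors' deposited tables called 2.72% at day 5 (0.761% higher, 1.96% lower), 0.395% at day 7 (0.221% higher) and 2.25% for the difference. At day 5 NCOA3, a co-activator of nuclear receptors, fell by 0.82 (authors' deposited table, adjusted p = 0.0492), with 56.5 ± 19.9 CPM with nicotine and 98.0 ± 20.4 CPM with vehicle (SD, n = 4 each). NKX6-1, a factor of ventral progenitors and motor neurons, rose by 0.51 (authors' deposited table, adjusted p = 0.0348), with 94.2 ± 14.5 CPM with nicotine and 65.4 ± 11.8 CPM with vehicle (SD, n = 4 each). It is also among the neural progenitor markers used here. At day 7 HOXC4 rose by 0.61 (authors' deposited table, adjusted p = 0.025), with 23.7 ± 3.64 CPM with nicotine and 15.6 ± 3.09 CPM with vehicle (SD, n = 4 each). edgeR called none of the 50 such genes it tested in these 3 comparisons, with a smallest adjusted p of 0.226 at day 5, 1 at day 7 and 0.266 for the difference.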

How the data were processed

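The authors deposited whole-number read counts per locus for 16 libraries, not normalised, and 5 tables of their own comparisons that give the log2 change, the same change as an unlogged ratio, and p-values before and after adjustment. Per the submitters' processing notes, alignment and assembly tools included StringTie 1.3.3b, Bowtie2 2.3.2 and HISAT2 2.0.5, next to Trim Galore 0.4.4, FastQC 0.11.5 and DESeq2. The genome build, and how strand was set in counting, is not given in the sources used here. Overlapping genes can therefore share reads, and no coordinates are printed. Gene spans and neighbours come from RefSeq (GRCg7b), which may not be the build of the counts. An adjusted p of 1 beside a smaller p was read as no adjusted value.

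The members, gene lists and tests were chosen with earlier results of these data known. Members are the genes of a fixed list of 10 symbols that the tables hold. Other retinoid genes are named where the authors' tables call them in any comparison, except 3 that count in the totals and are not reported here.

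Counts of all 18394 loci that passed filterByExpr, among 26943, were fitted in edgeR 4.0.16 (R 4.3.3; TMM, 1 mean per group, quasi-likelihood test, calls at 0.05 after Benjamini-Hochberg adjustment). DESeq2 1.42.0 with a term for the 4 libraries that lack 57 loci gave the authors' log2 fold changes with a median largest difference of 0.000192 over 7138 shared loci. This fit was used to join another 13803 table loci to the matrix, each within 0.005 and with the next locus at least 10 times farther. An assembled locus can hold more than 1 gene. The p-values measure the spread between embryos, which the labels call biological replicates. Steps were tested on simulated data. The alternatives were RLE size factors, DESeq2, no count filter, only the libraries compared, the replicate number as a block, a covariate for the 57 loci, the 12 libraries that hold them (chosen after seeing the data), and each library left out.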

Additional observations from a re-analysis of the deposited data

Results flagged for a closer look

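Of 16 group levels of the 4 genes, 3 held a library far from the other libraries of its group by Dixon's test, where chance gives about 1 in 20. RXRG in vehicle embryos of day 7 stood at 5.81 CPM in replicate 1, with 7.42 to 7.69 CPM in the others. ALDH1A1 in vehicle embryos of day 5 stood at 8.85 CPM in replicate 3, and in vehicle embryos of day 7 at 0.321 CPM in replicate 1, where the others had 0 counts. With the other 3 at 0 any count would be marked in this way, so that case carries no weight against the chance share. The effect of nicotine on RARB differed between day 7 and day 5 in the authors' deposited table, by 0.48 on the log2 scale (adjusted p = 0.0304), with 0.12 at day 7 and -0.36 at day 5.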

How the results depend on the processing

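Of 149 alternative fits of the 4 genes on the counts, 139 kept direction and side of the threshold, and so did 177 of 192 fits with 1 library left out. DESeq2 called RARB at day 5 at -0.37 and, with the covariate, at -0.36, and RARB for the difference between days at 0.48 with the covariate. DESeq2 also called ALDH1A1 in nicotine embryos at -3.52, and at -3.64 with the covariate. The DESeq2 fit with the covariate gave the authors' log2 fold changes, so its calls are not separate from theirs. On the compared libraries alone RARB (-0.30) and RXRG (0.57) no longer passed in vehicle embryos, nor did RXRG (0.56) in the 12 libraries. There ALDH1A1 with nicotine at day 7 turned to -0.14. With the replicate block ALDH1A1 in vehicle embryos was -4.51 and no longer passed (edgeR adjusted p = 0.0525). Replicate numbers were not taken as pairing, since the labels do not state that they pair embryos. Of 24 same-numbered pairs of libraries, 8 had deviations correlated over 0.1, and 7 of 16 libraries correlated best with their own number. The median correlation was 0.0094 for the same number and -0.0344 for other numbers. Whether these values exceed chance was not tested.

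edgeR called 0 loci with nicotine at day 5, at day 7 and for the difference between days, where 2747, 858 and 2521 had an unadjusted p under 0.05. With the replicate block, and with the covariate, it called 1 at day 5 and 1 for the difference, and in the 12 libraries 2 and 2. It called 5 at day 7 on the compared libraries. DESeq2 called 267, 32 and 232, and 299, 183 and 267 with the covariate. With 1 library left out edgeR called 0 to 3, 0 to 1 and 0 to 5, 5494 to 7013 between days in vehicle and 4033 to 5233 in nicotine embryos. Under Bonferroni adjustment of every p-value in the authors' tables, calls among the 4 genes were 0 at day 5, 1 in vehicle embryos, 1 in nicotine embryos and 0 for the difference.

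With 1 library left out RARB ran from -0.40 to -0.23 and RXRG from 0.40 to 0.71 between days in vehicle embryos. The difference of the nicotine effect on CYP26A1 ran from -0.053 (without nicotine day 7 replicate 1) to 0.35. ALDH1A1 ran from -1.98 to 0.68 with nicotine at day 5, from -0.26 to 4.23 at day 7, from -9.07 to -2.96 between days in vehicle embryos and from -0.52 to 5.59 for the difference. The cause of these shifts was not tested. DESeq2 gave ALDH1A1 no adjusted p with nicotine at day 5 or for the difference. Low counts limit ALDH1A1 at day 7, with at most 8 in a library.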

Other observations

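The genes with a symbol whose pattern was most like each of the 4 were named by a fixed rule, as a description with no test. Over the 4 log2 fold changes in the authors' deposited tables, CDS1, GALNT7 and AKAP12 were nearest to RARB (distance 0.022 to 0.0308), RAPGEF3, TMEM51 and MAP7D1 to RXRG (0.0482 to 0.0865), NPM3, PCTP and KCNS3 to CYP26A1 (0.177 to 0.243), and C7, ACR and HNF4A to ALDH1A1 (1.0 to 1.38). Over 16 libraries, the levels on a log2(CPM + 1) scale that followed RARB most closely were those of TIMP4, BAG5 and TNKS2 (Pearson r 0.875 to 0.909). For RXRG they were DCPS, CASC3 and PTK7 (0.919 to 0.93), for CYP26A1 PSMD1, DDX51 and HSPA9 (0.973 to 0.977), and for ALDH1A1 TMEM52B, PRDX1 and SERPINB1 (0.875 to 0.941). The 16 libraries differ by day and share their groups, and for ALDH1A1 1 library holds most counts.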
